A study of Mus musculus with 8 samples.

Results

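The peroxiredoxins Prdx1, Prdx2, Prdx4, Prdx5 and Prdx6, together with Txn1, Txnrd1, Gpx1, Gpx4 and Sod1, encode enzymes that remove peroxides and superoxide, or that keep those enzymes reduced. The 10 genes were taken by their symbols from a table of nanopore direct RNA reads, in which each line holds 1 alignment and the length of that read's poly(A) tail in nucleotides (nt). Reads with the tail estimator's PASS tag on mRNA transcripts were counted once per transcript, and the 10 genes accounted for 11956 of 1884140 such reads and for 10 of the 13045 genes with reads. The cells were undifferentiated, wild-type mouse P19 cells, an embryonal carcinoma line used as a model of pluripotent cells and of neuronal differentiation. They received 10 µM MHY1485 (MHY), a small molecule described as an activator of the kinase mTOR, or its solvent DMSO alone, and were collected after 24 h or 48 h, with medium and compound renewed every 24 h. There were thus 4 groups of 2 biological replicates. In the deposited table the DMSO and MHY libraries of the 24 h time point bear the numbers 21 and 23, and those of the 48 h time point 24 and 25, which are names and do not stand for hours. Values given in pairs follow that order. The study asked how activation of mTOR shapes tails, chiefly those of mRNAs for the translation machinery, and the antioxidant mRNAs were measured in the same libraries.

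Peroxiredoxins reduce peroxides with a reactive cysteine, and most of them are returned to the reduced state by thioredoxin, which is itself reduced by thioredoxin reductase with electrons from NADPH. Glutathione peroxidases take their electrons from glutathione instead, and superoxide dismutase supplies both systems with hydrogen peroxide. Thioredoxin reductase and the glutathione peroxidases Gpx1 and Gpx4 are selenoproteins, whose mRNAs carry in the 3′ UTR a hairpin that directs selenocysteine insertion at a UGA codon. A poly(A) tail is added after cleavage downstream of a hexamer signal, most often AATAAA, and is then shortened in the cytoplasm.

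Libraries held 174451 to 309725 mRNA reads, and their median tails were 92.6 to 103 nt. MHY replicate 24 at 48 h stood apart with the shortest median tail and with 4.51% of its reads under 30 nt, against 2.19% to 3.41% in the other libraries. Markers of pluripotent cells fitted the label, with 9 of 10 genes detected and a summed level of 372 to 428 reads per 100000. Pou5f1 alone had 243 to 297 reads per 100000, so this sum mainly follows 1 gene. Dppa5a had 11 reads in all libraries, and Zfp42 had no read. Of 5 neuronal markers 4 were detected, Dcx having no read, and their sum was 29.4 to 34.1 reads per 100000 in DMSO and 28.2 to 41.3 in MHY at 24 h, and 28.7 to 32.0 in DMSO and 22.4 to 24.3 in MHY at 48 h. Stmn2 gave most of this sum (455 reads in all libraries, against 94 for Tubb3, 6 for Map2 and 3 for Snap25). Of 5 mesoderm and muscle markers 4 were detected, with Tnnt2 at 0, and their sum was 4.28 to 5.56 in DMSO and 1.72 to 2.27 in MHY at 24 h, and 9.08 to 25.8 in DMSO and 6.24 to 21.0 in MHY at 48 h. That sum was mostly T, with 166 reads against 19 for Acta2, 5 for Actc1 and 3 for Myh6. The neuronal and the mesoderm sums thus also mainly follow 1 gene each. Endoderm and fibroblast markers summed to at most 1.36 reads per 100000 in any library. The part of these differences in the results on antioxidant mRNAs was not tested.

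The 3′ ends of the reads show which mRNA forms the tails belonged to, and the sequences that carry them are given here for members whose ends lay away from the annotated end, whose signal was not AATAAA, or whose tails were shortest. Each line holds the 30 bases that end at the most frequent read end on the most-read transcript, or at a further end of Prdx1 and Prdx6 that held a hexamer, 5′ to 3′ on the transcript's strand, from GENCODE vM21 transcripts on GRCm38 (mm10). Capitals mark the hexamer AATAAA or ATTAAA, searched on the transcript strand, and all windows lie in the annotated 3′ UTR.
Prdx1, 2871 reads, chr4:116699486-116699515, plus strand: taagtatctATTAAAcgtgaattctgagaa
Prdx1, further downstream, 183 reads, chr4:116699969-116699998, plus strand: tctgccaggaATTAAAagtgtgtgccacca
Prdx2, 870 reads, chr8:84974288-84974317, plus strand: gaaaccAATAAAgtattagggacagtgtaa
Prdx4, 466 reads, chrX:155323920-155323949, minus strand: ttctcAATAAAggtcattgtgttattacca
Prdx5, 248 reads, chr19:6906706-6906735, minus strand: ctgcAATAAAcagtttaatttgtgtcttta
Prdx6, 797 reads, chr1:161241009-161241038, minus strand: ggttcaacaAATAAAatcctgatcagaaaa
Prdx6, further upstream, 201 reads, chr1:161241548-161241577, minus strand: ctgggtcATTAAAtggaaatggcaccaaaa
Txn1, 1467 reads, chr4:57943757-57943786, minus strand: AATAAAatattaattctaccctttttaaaa
Sod1, 2023 reads, chr16:90226295-90226324, plus strand: taccctcaaaccATTAAActgtaatctgaa

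In 4 of the 10 mRNAs most reads ended well before the annotated end of their transcript. The distance was 1307 nt for Prdx1, 897 nt for Prdx6, 517 nt for Prdx2 and 384 nt for Txn1, whereas the main end lay within 5 nt of the annotated end for the other 6 genes. Among 1910 genes with enough reads, the main end lay within 30 nt of the annotated end in 60% of them. The main window held AATAAA in 8 members and ATTAAA in Prdx1 and Sod1. Of the windows of the 1910 genes, 68.1% held AATAAA and 14.8% held ATTAAA without it. A match to these letters describes the window and does not show that the signal was used.

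**Figure D1:**
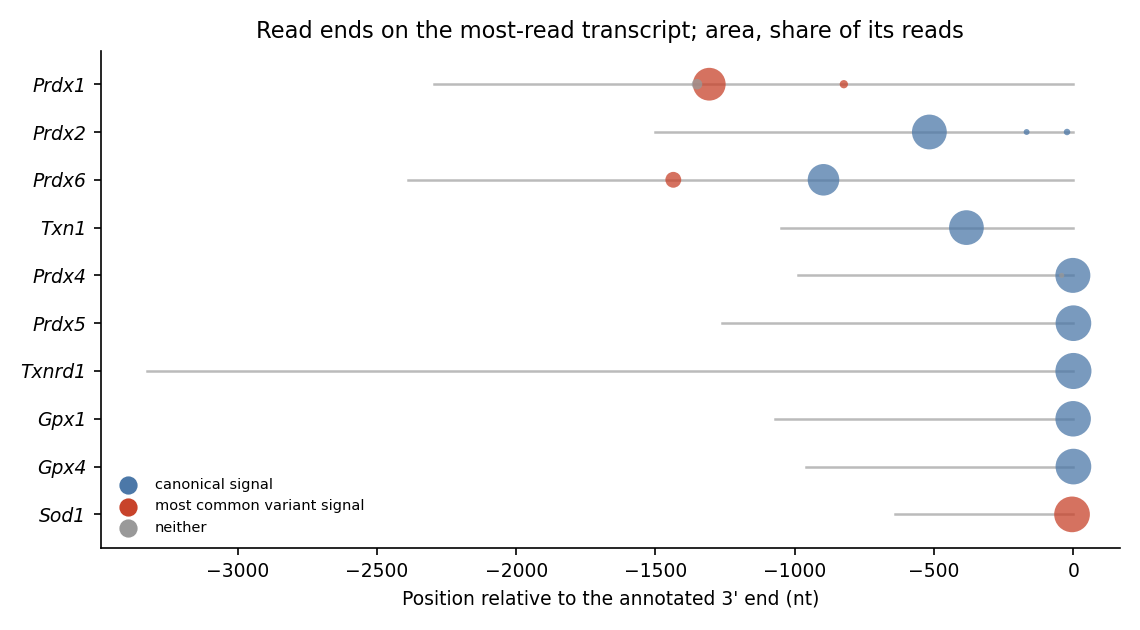
Read ends on the most-read transcript of each gene, as distance in nt from the annotated 3′ end at 0, with the grey line spanning the transcript. Circle area stands for the share of that transcript's reads and colour for the hexamer within 30 bases (blue for the canonical AATAAA, red for the variant ATTAAA, grey for neither). Prdx1, Prdx2, Prdx6 and Txn1 ended 384 to 1307 nt before the annotated end, and the other genes within 5 nt of it.

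A second end was used by a sizeable share of the reads of Prdx6, whose product also has phospholipase activity. Its upstream end took 19.3% of the transcript's reads, and 13.9% to 23.1% in single libraries. The share was 22.5% and 18.7% in DMSO and 16.8% and 22.9% in MHY at 24 h, and 23.1% and 22.8% in DMSO and 13.9% and 15.5% in MHY at 48 h. The 2 groups overlapped at 24 h, and at 48 h both MHY libraries were lower, with Wilson 95% intervals of 9.41% to 19.9% and 9.79% to 23.8% in MHY and of 16.2% to 31.9% and 16.9% to 29.9% in DMSO. The exact two-sided permutation test of 2 libraries against 2 cannot give a p below 0.3333. How often the groups separate in this way over all genes was not computed for read ends, so no conclusion is drawn from the 48 h values. For Prdx1, 82.5% of reads used the main end, 8.56% an end 44 nt before it that held neither hexamer, and 5.26% the downstream one. No difference in tails between main and other ends passed the test in the 4 ends where it was run. The upstream Prdx6 end minus the main end was 1.79 ± 10.4 nt (SD over 8 libraries, exact sign-flip test, adjusted p = 0.828), and the downstream Prdx1 end minus the main one was -6.29 ± 13.7 nt (SD over 8 libraries, exact sign-flip test, adjusted p = 0.453). A further end of Prdx4, with 10 reads, and one of Prdx2, with 30, were not tested because some libraries had no read there. The Prdx4 one had a median tail of 125 nt, against 81.0 nt at the main end. The spread over libraries limits what these tests can show.

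Reads on the 10 genes fell on 25 transcripts, of which 18 had at least 30 reads and together held 99.7% of the reads. A single transcript carried all reads of Prdx1 (Prdx1-204), Txn1 (Txn1-201) and Gpx1 (Gpx1-201). Prdx2 was divided among 4 transcripts, chiefly Prdx2-201 with 934 reads and a median tail of 115 nt and Prdx2-203 with 198 reads and a median of 108 nt. Txnrd1 was divided among 3 in similar number, Txnrd1-201 with 60 reads and a median tail of 123 nt, Txnrd1-206 with 58 reads and 126 nt, and Txnrd1-205 with 51 reads and 149 nt. The reads of each ended most often at its annotated 3′ end, and the tails of these transcripts were not compared by a test. Mapping quality of at least 10 held for 11.7% of the reads on Txnrd1-201, 75.9% on Txnrd1-206 and 5.88% on Txnrd1-205. How Txnrd1 reads were shared among the 3 is therefore uncertain, and so are the medians. Reads of full length were common for some members and rare for others. Of the reads on the most-read transcript, 95.5% began within its first 100 nt for Sod1 and 84.8% for Prdx1, but 7.26% for Txn1 and 0.183% for Gpx4. A read that stops early and an mRNA that starts downstream of the annotated start cannot be told apart here, so transcripts that differ at the 5′ end are resolved only in part.

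The mRNAs spanned more than an order of magnitude in reads. Since 1 read is 1 mRNA molecule, reads were not divided by transcript length. In these bulk cultures, fewer cells with a transcript and less of it per cell cannot be told apart. Prdx1, a cytosolic peroxiredoxin, was the most abundant with 187 ± 16.6 reads per 100000 (SD, 8 libraries) and ranked 107 among all genes. Cytosolic copper-zinc superoxide dismutase, Sod1, followed with 111 ± 5.33, and the thioredoxin Txn1 had 84.5 ± 8.28. Cytosolic Prdx2 had 65.8 ± 6.74 reads per 100000, Gpx4, which reduces lipid hydroperoxides in membranes, 62.1 ± 12.2, and Prdx6 57.6 ± 6.18.

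The remaining members were rarer. Prdx4, the peroxiredoxin of the endoplasmic reticulum, had 26.6 ± 4.92 reads per 100000, and the cytosolic glutathione peroxidase Gpx1 had 21.1 ± 7.59. Prdx5, found in mitochondria, peroxisomes and cytosol, had 13.7 ± 2.72 reads per 100000, and thioredoxin reductase 1, Txnrd1, had 8.89 ± 2.02. Relative to its mean, Gpx1 varied most between libraries, from 11.6 to 36.8 reads per 100000, and Sod1 least, from 104 to 121. Mapping was least certain for Txnrd1 and Gpx4, with mapping quality of at least 10 in 31.8% and 58.7% of their reads. A further 389 reads lay on the near-identical processed copy Gpx4-ps2 (median tail 88.5 nt, 8.23% at that mapping quality), so how reads were shared between Gpx4 and the copy is uncertain.

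**Figure D2:**
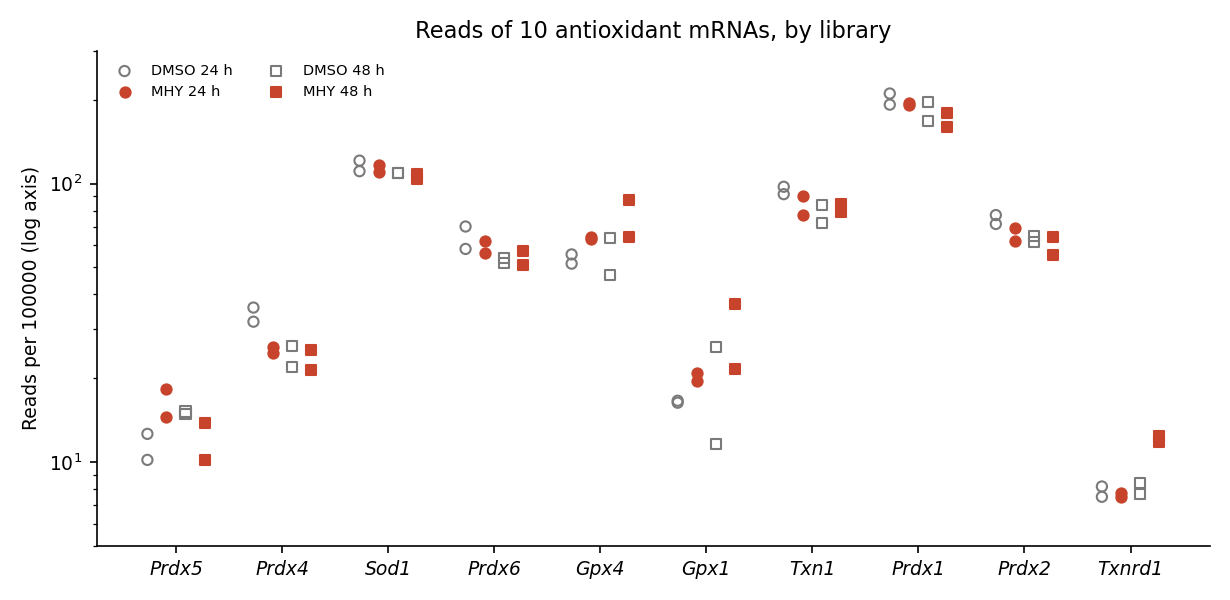
Reads per 100000 mRNA reads of the library (log axis) for each gene, 1 point per library, with open symbols for DMSO, filled for MHY, circles for 24 h and squares for 48 h. Prdx1 lay highest at 160 to 211 and Txnrd1 lowest at 7.45 to 12.4, and the Gpx1 points were the most spread.

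Tails of the antioxidant mRNAs did not form a single class. Over all reads, the gene's median tail ran from 77.3 nt for Prdx5 to 128 nt for Txnrd1. The median over the 10 genes was 102 nt, against 99.5 nt (interquartile range 93.0 to 107) over the 1930 genes with at least 10 reads in every library and 93.3 nt over 79 cytosolic ribosomal protein genes. The members' interquartile range was 92.4 to 110 nt. Tails within a gene were broader than the differences between genes, with interquartile ranges of 58.7 nt for Txn1 to 71.2 nt for Prdx5.

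Prdx5 and Prdx4 lay at the short end. Prdx5 had medians of 56.9 and 61.3 nt in DMSO and 79.7 and 89.6 nt in MHY at 24 h, and 89.2 and 88.0 nt in DMSO and 75.4 and 66.7 nt in MHY at 48 h. Every library lay below the median of all genes, and the 2 DMSO libraries at 24 h lay lowest. Only 1.45% of the 1930 genes had a shorter median over all reads. Prdx4 had medians of 74.9 and 76.1 nt in DMSO and 85.5 and 89.7 nt in MHY at 24 h, and 81.4 and 89.1 nt in DMSO and 81.2 and 84.9 nt in MHY at 48 h. It too was below the median of all genes in each library, and 2.95% of genes had a shorter median.

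The short tails of these 2 mRNAs reached into the class under 30 nt. Of the Prdx5 reads, 10.6% were under 30 nt (27 of 255, Wilson 95% interval 7.38% to 14.97%) and 49.4% were 30 to 90 nt, the class the study calls ~60 nt. Of the Prdx4 reads, 6.24% were under 30 nt (31 of 497, interval 4.43% to 8.72%) and 48.7% were 30 to 90 nt. Over the genes tested, the median shares were 3.07% and 39.3%. The lowest shares under 30 nt were those of Txnrd1, with 0.588% (1 of 170, interval 0.104% to 3.26%), and of Prdx1 and Prdx2, with 0.661% (23 of 3481, interval 0.441% to 0.990%) and 0.651% (8 of 1228, interval 0.330% to 1.28%) of reads under 30 nt. The intervals cover counting error only, over reads pooled from 8 libraries.

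At the long end, Txnrd1 had medians of 148 and 120 nt in DMSO and 149 and 112 nt in MHY at 24 h, and 143 and 131 nt in DMSO and 133 and 124 nt in MHY at 48 h. All 8 libraries lay above the median of all genes, on 13 to 36 reads each, and 98.0% of genes had a shorter median over all reads. Of its 170 reads, 15.9% were 30 to 90 nt and 32.9% were over 150 nt, against 8.63% over 150 nt for Prdx5. The selenoprotein mRNAs Gpx1 and Gpx4 had medians of 104 nt and 99.8 nt. Txn1, the substrate of thioredoxin reductase, had 107 nt, Prdx1 111 nt and Prdx2 115 nt. Prdx6, with 93.4 nt, and Sod1, with 92.1 nt, lay close to the ribosomal protein mRNAs.

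**Figure D3:**
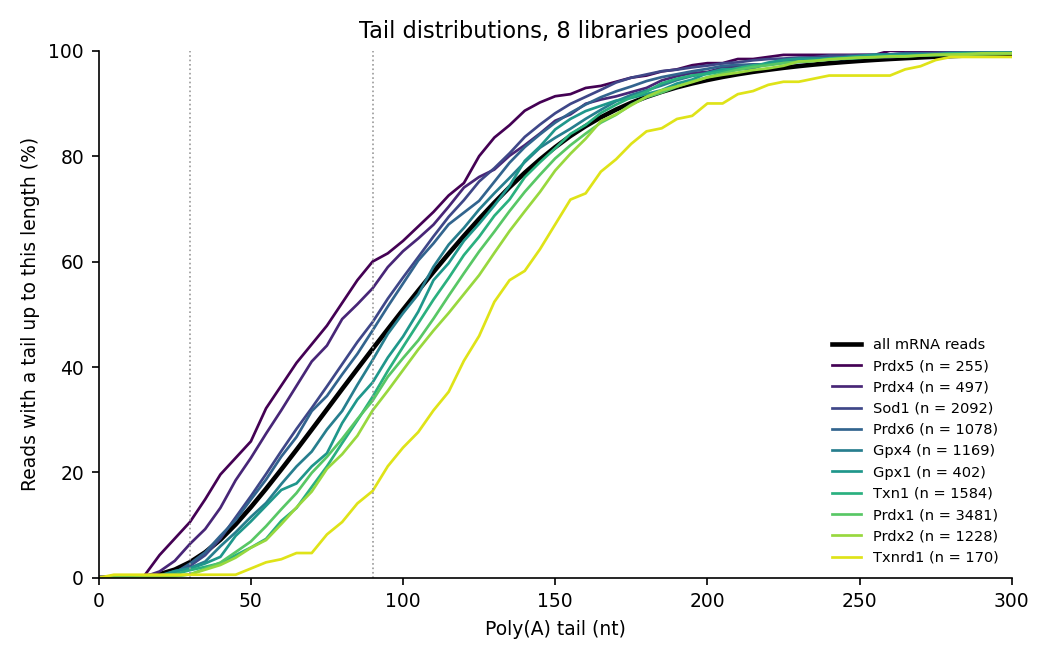
Cumulative share of reads (%) with a tail up to the length on the x axis (nt), reads of 8 libraries pooled, with dotted lines at 30 and 90 nt and the black line for all mRNA reads. At 90 nt the curves of Prdx5 and Prdx4 lie highest and that of Txnrd1 lowest (medians 77.3, 80.9 and 128 nt), and curves cross at shorter and longer tails.

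The order from short to long by the mean of the 8 library medians was Prdx5, Prdx4, Sod1, Prdx6, Gpx4, Gpx1, Txn1, Prdx1, Prdx2 and Txnrd1. Of the 45 pairs of genes, 39 differed at an adjusted p under 0.05 in an exact two-sided sign-flip test over the 8 libraries (smallest possible p 0.0078125, Benjamini-Hochberg over the 45 pairs), a comparison chosen after the values were seen. In 26 pairs the order was the same in all 8 libraries. Among the 9 neighbours in the order, 5 pairs passed. The smallest of these steps was between Prdx1 and Prdx2, where Prdx1 minus Prdx2 was -3.59 ± 3.37 nt (SD over 8 libraries) and Prdx2 was longer in 6 of the 8 libraries (exact test, adjusted p = 0.0361).

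Neighbouring pairs that did not differ beyond their spread were Prdx4 and Prdx5 (difference 6.98 ± 9.33 nt, SD over 8 libraries, exact test, adjusted p = 0.109), Prdx6 and Sod1 (1.59 ± 3.66 nt, exact test, adjusted p = 0.304), Gpx1 and Gpx4 (4.46 ± 8.18 nt, exact test, adjusted p = 0.204), and Txn1 and Gpx1 (1.21 ± 6.14 nt, exact test, adjusted p = 0.578). Prdx2 minus Txnrd1 ran from -34.8 to 13.2 nt over the 8 libraries, with Txnrd1 longer in 6 of them (exact test, adjusted p = 0.0361), and Prdx4 minus Sod1 was -9.31 ± 7.66 nt and below 0 in all 8 libraries (exact test, adjusted p = 0.0135). The 8 libraries came from 4 groups, and this test takes their differences as exchangeable.

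**Figure D4:**
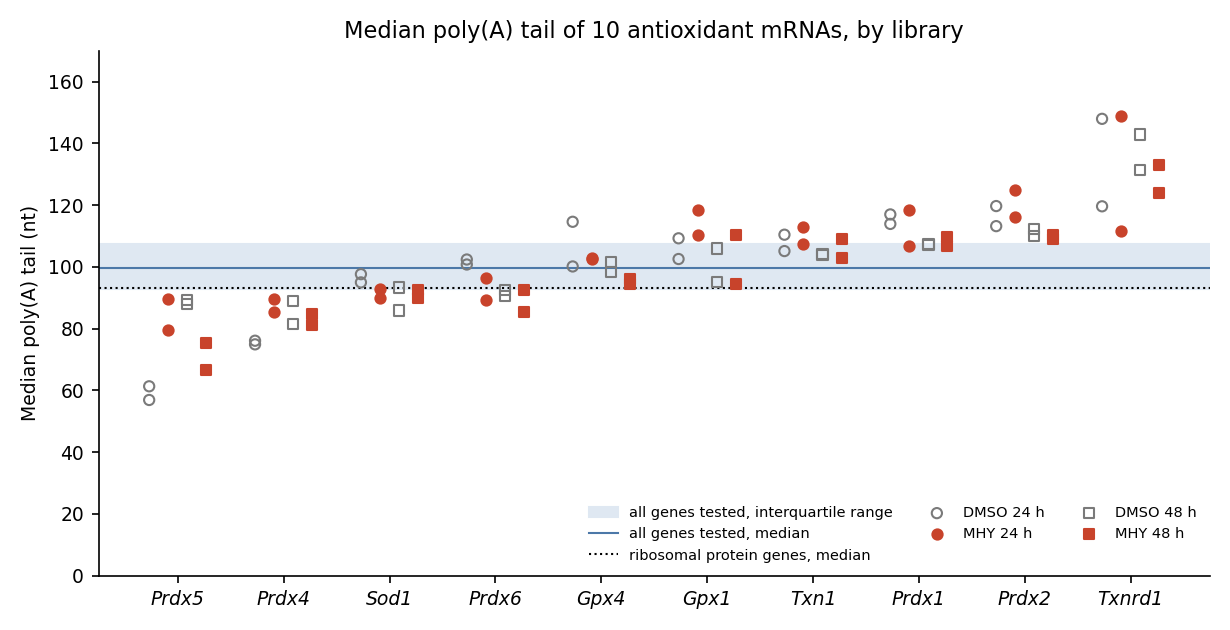
Median poly(A) tail (nt) of each gene, 1 point per library, with open symbols for DMSO, filled for MHY, circles for 24 h and squares for 48 h. The shaded band and blue line give the interquartile range and median over all genes tested (93.0 to 107 and 99.5 nt) and the dotted line ribosomal protein genes (93.3 nt). Prdx5 and Prdx4 lie below the band and Txnrd1 above it in all 8 libraries.

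MHY against DMSO was tested in each gene for its median tail, its shares of reads under 30 nt and of 30 to 90 nt, and its reads, with limma across all genes. None of the 10 antioxidant genes passed the adjusted threshold of 0.05 in any of the 120 tests, which comprise 4 measures, both time points and the difference between the time points. Unadjusted p was under 0.05 in 5 of them. For tails, 0% of the 1930 genes passed at 24 h, 0.933% at 48 h and 0% for the difference between time points. For the share under 30 nt, the percentages called were 0%, 0.363% and 0%, and for the ~60-nt share 0%, 0.207% and 0%. For reads, 0.0488%, 1.61% and 0.342% of 4097 genes passed. The members' count of 0 is close to these background percentages, and it does not show that MHY left these mRNAs as they were.

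Among the members, tail estimates at 24 h lay between -8.03 nt (Prdx6) and 24.9 nt (Prdx5). Those at 48 h lay between -17.3 nt (Prdx5) and 1.35 nt (Txn1). The median estimate over the members was 1.94 nt at 24 h and -2.25 nt at 48 h, against -0.65 and -3.00 nt over all genes tested. The narrowest interval was that of Prdx1, whose medians were 114 and 117 nt in DMSO and 107 and 118 nt in MHY at 24 h, and 107.3 and 107.1 nt in DMSO and 107 and 110 nt in MHY at 48 h. The change was -3.90 nt at 24 h (SE 3.62, 95% interval -11.2 to 3.40) and 0.79 nt at 48 h (SE 3.50, interval -6.26 to 7.85). At the other extreme, the interval for Txnrd1 at 24 h was -34.1 to 38.2 nt. All 10 intervals held the median of all genes at both time points. Library medians of MHY and DMSO did not overlap in 5 members at 24 h (Prdx4, Prdx5 and Gpx1 longer, Prdx6 and Sod1 shorter in MHY) and in 2 at 48 h (Prdx5 and Gpx4, shorter in MHY), against 32.2% and 33.5% of all genes.

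**Figure D5:**
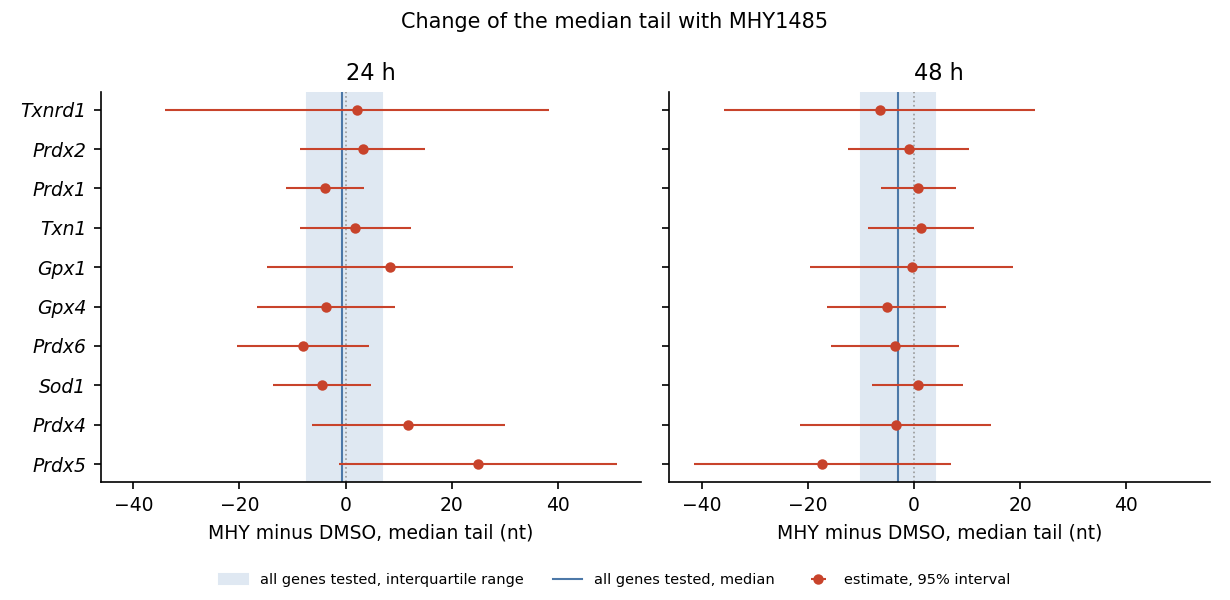
Change of the median tail (nt, MHY minus DMSO) at 24 h and 48 h from the fit across genes, points being estimates and bars 95% intervals, with the band and line for the interquartile range and median of the estimates over all genes tested. Prdx5 has the largest estimate at both time points, 24.9 nt and -17.3 nt, and each bar crosses the line for all genes.

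Prdx5 had the largest estimated change at both time points, with opposite sign. The change was 24.9 nt at 24 h (SE 13.0, 95% interval -1.34 to 51.1, adjusted p = 0.995) and -17.3 nt at 48 h (SE 12.0, interval -41.5 to 6.94, adjusted p = 0.793). The difference between these 2 changes was -42.2 nt (SE 17.7, interval -77.8 to -6.46, adjusted p = 0.999 by limma). Its unadjusted p was under 0.05, as in 4.51% of all genes in that contrast. These medians rest on 19 to 47 reads per library. The deposited table also divides reads by a column named sample, whose values are called runs here. The labels do not say what these values stand for. Within a run the reads of a treatment's libraries were pooled, so runs are not further replicates. The direction of the Prdx5 change was not the same in each run. In the 3 runs at 24 h, MHY minus DMSO was 50.4, -5.58 and 9.21 nt, and in the 2 runs at 48 h it was 13.6 and -37.9 nt. The 2 time points did not share a run, so time and run cannot be told apart.

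On the log2 odds scale of the fit, Txn1 had the largest estimated difference in the share of reads under 30 nt among the members at both time points. Counts were 1 of 182 and 2 of 247 reads in DMSO and 4 of 170 and 2 of 157 in MHY at 24 h, and 2 of 151 and 1 of 259 in DMSO and 8 of 241 and 3 of 177 in MHY at 48 h. At each time the MHY libraries exceeded both DMSO libraries, which was so for 7.82% of all genes at 24 h and 26% at 48 h. The log2 odds differed by 1.18 at 24 h (SE 0.55, adjusted p = 0.960) and by 1.72 at 48 h (SE 0.52, adjusted p = 0.277 by limma), while the median over all genes at 48 h was 0.41. The unadjusted p at 48 h was under 0.05, as in 10.6% of all genes. The highest share belonged to MHY replicate 24, the library with the shortest median tail over all its reads. Without it the difference at 48 h was 1.23 (adjusted p = 0.823 by limma) and without DMSO replicate 25 it was 0.76 (adjusted p = 0.865 by limma). The median tail of Txn1 changed by 1.82 nt at 24 h (SE 5.22) and 1.35 nt at 48 h (SE 4.94), which did not pass the test.

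In reads, Gpx1 came closest to the threshold. Its level was 16.6 and 16.3 reads per 100000 in DMSO and 20.9 and 19.5 in MHY at 24 h, and 25.8 and 11.6 in DMSO and 36.8 and 21.5 in MHY at 48 h. The groups overlapped at 48 h, where replicate 24 was the higher of the 2 libraries in both treatments. The fit of reads pooled the spread over all genes, so the SE, interval and p-values below do not measure this difference between libraries. The log2 fold change was 0.27 at 24 h (SE 0.25, adjusted p = 0.989) and 0.72 at 48 h (SE 0.22, 95% interval 0.29 to 1.14, adjusted p = 0.0552), and 12.2% of all genes had an unadjusted p under 0.05 at 48 h. Within the 2 runs at 48 h, the log2 ratio of MHY to DMSO was 0.87 (35 and 63 reads, DMSO and MHY) and 0.78 (55 and 94 reads). These ratios were scaled by total reads, unlike the fit, and each pools the libraries of a treatment. The fitted value turned on single libraries. It was 0.33 without MHY replicate 24 and 0.09 without DMSO replicate 25 (adjusted p = 0.879 and 0.969 by limma), but 1.19 without DMSO replicate 24 and 1.01 without MHY replicate 25 (adjusted p = 0.00557 and 0.000993 by limma). Each of these 4 fits left 1 library in an arm at 48 h, which was assumed to vary like the other groups, so their p-values rest on the spread in those groups. Scaling by total reads, which moved the median of all genes at 48 h from -0.01 to 0.10, gave 0.84 (adjusted p = 0.0154 by limma).

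Gpx4 and Txnrd1 also had positive estimates at 48 h, which did not pass the test. Gpx4 had 46.8 and 63.9 reads per 100000 in DMSO and 64.3 and 87.3 in MHY, a log2 fold change of 0.31 (SE 0.16, adjusted p = 0.416). Txnrd1 had 7.65 and 8.39 in DMSO and 11.8 and 12.4 in MHY, a log2 fold change of 0.45 (SE 0.30, adjusted p = 0.572) on 16 to 36 reads per library. At 24 h, the log2 fold change was 0.22 for Gpx4 (SE 0.17) and -0.08 for Txnrd1 (SE 0.36). In both mRNAs the MHY libraries at 48 h lay above both DMSO libraries, as for 25.3% of all genes.

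Among the peroxiredoxins, Prdx4 had 35.8 and 31.9 reads per 100000 in DMSO and 24.5 and 25.8 in MHY at 24 h, and 22.0 and 26.2 in DMSO and 21.3 and 25.3 in MHY at 48 h. Both MHY libraries at 24 h lay below both DMSO libraries, as for 16.6% of all genes. The log2 fold change was -0.45 (SE 0.21, adjusted p = 0.963 by limma), and its unadjusted p was under 0.05, as in 4.42% of all genes. Values by run, scaled by total reads, were -0.46, -0.31 and -0.50. They split the reads of the same cultures and are not further replicates. At 48 h the groups overlapped and the log2 fold change was -0.20 (SE 0.21, adjusted p = 0.761). Prdx5 had a log2 fold change of 0.45 at 24 h (SE 0.28) and -0.49 at 48 h (SE 0.26), and the difference between them was -0.94 (SE 0.39, adjusted p = 0.539 by limma), with an unadjusted p under 0.05, as in 6.61% of all genes. Its levels were 10.2 and 12.6 reads per 100000 in DMSO and 14.5 and 18.3 in MHY at 24 h, and 14.8 and 15.2 in DMSO and 10.2 and 13.8 in MHY at 48 h. For Prdx1, Prdx2, Prdx6, Txn1 and Sod1 the estimates lay between -0.21 and -0.05 at both times, with intervals reaching at most 0.25 on the upper side, and those of Prdx6 and Txn1 at 48 h changed sign to 0.04 and 0.06 when scaled by total reads.

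Of 67 other genes of the thioredoxin and glutathione systems, peroxide removal, NADPH supply, the Nrf2 response and selenoprotein synthesis, 65 had reads, 20 could be tested for tails and 42 for reads. None passed the adjusted threshold of limma in either direction for any measure or contrast. Unadjusted p was under 0.05 in reads for 2 of the 42 genes at 24 h, 6 at 48 h and 5 for the difference between time points, against 4.42%, 12.2% and 6.61% of all genes. It was under 0.05 in tails at 24 h for 2 of the 20 genes (77 of the 1930 over all genes), in the <30-nt share at 24 h for 3 (109 of the 1930) and in that share's difference between time points for 3 (163 of the 1930), and for 0 in the other tail contrasts. The 5 with the most reads were Tkt (667 reads, median tail 102 nt) and Taldo1 (567 reads, 106 nt) of the pentose phosphate pathway, Glrx3 (636 reads, 78.5 nt), a glutaredoxin that carries iron-sulfur clusters, the selenoprotein gene Selenof (515 reads, 110 nt) and the glutathione transferase gene Gsta4 (479 reads, 94.1 nt). Median tails of the 20 genes ran from 78.5 to 142 nt, with a median of 105 nt, so that the spread seen among the 10 members was also present in this wider set. Only Glrx3 among the 20 had a shorter median than Prdx4.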

How the data were processed

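Direct RNA reads of 8 libraries were analysed. According to the methods, base calling was done in Guppy, alignment to GENCODE vM17 mouse transcripts (mm10) in minimap2 (2.20 in the submitters' processing notes), tail estimation in Nanopolish and demultiplexing in Deeplexicon. Tail lengths deposited by the authors are Nanopolish estimates in nt, not normalized. The deposited mapping quality is a score, and the deposited barcode confidence is a fraction. The authors gave no counts per gene, so lines were counted.

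Of 2439710 alignments, 2027638 (83.1%) carried the PASS tag, and mRNA lines on mitochondrial transcripts (66955) and pseudogenes (54147) were left out. Genes with at least 10 reads in each library were tested for tails, and those with at least 10 reads in 2 libraries for reads. Medians and log2 odds of the classes (0.5 read added) were fitted with weights for read number, and reads with voom, in limma 3.58.1 under R 4.3.3, with all 4 groups in the fit and Benjamini-Hochberg adjustment over all genes. The code was tested on simulated data. A read end joins reads within 15 nt. All 10 members are named, and of the other genes those that passed a test and the 5 with the most reads. The members and lists were chosen with earlier results of these data known. Each library's name gives its group but not which labelled replicate it is. Shares of counts carry Wilson intervals, and p-values rest on 2 replicates per group. In the fit of reads the spread was pooled over all genes (16388 degrees of freedom). Its SE, intervals and p-values therefore do not measure a gene's own spread between replicates.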

Additional observations from a re-analysis of the deposited data

How the results depend on the processing

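No antioxidant member passed in any of the 120 planned tests, and 3 of 1880 repeats of them under alternatives passed, all for Gpx1 reads at 48 h. With 1 library left out, which leaves a lone sample in an arm that is assumed to vary like the other groups, 0 to 1 member was called there, and scaling by total reads called 1. The numbers of genes called over all genes moved more, and the cause was not tested. For tails at 48 h, 18 genes became 11 with mapping quality of at least 10 and 0 without weights, and 0 to 38 with 1 library left out. For the <30-nt share at 48 h, 7 became 15 with the replicate block, 12 with that mapping quality, 2 with barcode confidence of at least 0.9, 0 without weights, 0 with a bound of 20 nt, 0 with 0.1 read added, and 0 to 9 with 1 library left out. For the difference between time points of that share, 0 became 6 with the replicate block, 4 with the mapping quality, 2 with the barcode confidence, 2 with at least 30 reads in each library and 0 to 2 with 1 library left out. For the ~60-nt share at 24 h, 0 became 3 with the replicate block, 3 with the libraries of the time point alone and 0 to 3 with 1 library left out. At 48 h, 4 became 7 with the replicate block, 10 with the libraries of the time point alone, 2 with the barcode confidence, 2 with bounds of 40 to 80 nt, 0 with the mapping quality, 0 with at least 30 reads in each library, 0 without weights and 0 to 34 with 1 library left out. For reads at 24 h, 2 became 1 with the mapping quality, 4 with limma-trend and 0 to 3 with 1 library left out. At 48 h, 66 became 38 with the barcode confidence, 38 with the libraries of the time point alone, 30 with limma-trend, 145 without a filter and 10 to 137 with 1 library left out. For their difference between time points, 14 became 6 with the mapping quality, 5 with the barcode confidence, 4 with limma-trend, 29 without a filter and 0 to 29 with 1 library left out. The tail difference between time points gave 0 to 1 and the <30-nt share at 24 h 0 to 1 with 1 library left out.

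Samples with the same library number did not deviate together (r of deviations -0.02 to 0.05 over 8 checks across genes), so the replicate block pairs them by number only. With the block, Gpx1 reads at 48 h had a log2 fold change of 0.54 (adjusted p = 0.140 by limma), and it called no member in any contrast. Depth limits the rarer mRNAs most. Txnrd1 had 13 to 36 reads per library and Prdx5 19 to 47, so their medians and shares carry wide intervals, and the classes under 30 nt hold few reads in each member.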

Other observations

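The share of alignments with the PASS tag was 83.9% for Prdx1, 84.2% for Txnrd1 and 88.3% for Sod1, the lowest 2 and the highest among the 10 genes. On Sod1-202, a transcript with a retained intron, 25 reads had a median tail of 60.1 nt, against 92.3 nt for 2067 reads on Sod1-201, with none of the 25 at a mapping quality of at least 10. No test was run on this difference.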
